A study of Bos taurus with 3 samples.

Results

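SLC14A1, which encodes the facilitative urea transporter UT-B, and the aquaporin genes AQP3, AQP7, AQP9, AQP10 and AQP11 were described in single epithelial cells of the ventral rumen of 3 adult lactating Holstein cows. These 6 genes were chosen by name. Of the 6, 5 had a named row among the 19533 named genes of the count table, and 4 had at least 1 unique molecular identifier (UMI, the tag that counts 1 captured RNA molecule once). AQP10 had no named row and was not analysed here. The cells came from 1 droplet library per cow (10x 3' chemistry), all cows were in 1 condition, and the comparisons are therefore between cell states within the same animals. The paper gives a corn-based high-grain diet for the cows whose rumen contents were sampled. It took these 3 cows from an earlier study without giving their diet. The tissue was stripped of muscle and dissociated with enzymes, and cells of other types had been removed before the files were deposited.

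Urea that the liver makes returns from the blood to the rumen, where microbes use its nitrogen, and UT-B lets it cross cell membranes down its gradient. AQP3, AQP7, AQP9 and AQP10 are aquaglyceroporins, channels that pass glycerol and, to different degrees, urea as well as water. AQP11 is a distant member of the aquaporin family that is found mainly inside cells.

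Cow 1 gave 3369 cells and 38912809 UMIs, cow 2 gave 7401 cells and 94856658 UMIs, and cow 3 gave 9958 cells and 104189434 UMIs. The median cell held 10514 UMIs, and median mitochondrial shares were 17.2%, 10.8% and 12.4% in cows 1, 2 and 3. Between 5 and 20 cell barcodes were shared by each pair of libraries. The summed level of the keratinocyte markers KRT5, KRT14, KRT15 and KRT19 lay between 92.9 and 197 UMIs per 10000 in every cow and state. The fibroblast markers COL1A1, COL1A2 and DCN came to 10 UMIs in 20728 cells. The list of 5 immune and macrophage markers came to 1097 UMIs, of which CD68 gave 819 in 757 cells, CD3E 211 and C1QA 3, and its summed level lay between 0 and 0.0800 per 10000 UMIs over the cows and states. The 3 endothelial markers came to 570 UMIs, of which VWF gave 563 in 538 cells, at summed levels of 0 to 0.0923, and the 3 smooth muscle markers came to 120 UMIs. No marker of these lists with a row was at 0 UMIs, and their part in the results was not tested.

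Cell states were set by whether a cell held at least 1 UMI of DLK2, GJA1, FABP4, IGFBP5 and GSTA1, none of which is a member. DLK2 encodes a membrane protein related to Notch ligands, GJA1 the gap junction protein connexin 43, FABP4 a fatty acid carrier, IGFBP5 a binding protein of insulin-like growth factors, and GSTA1 a glutathione transferase. The result was 10 exclusive states. DLK2-only cells held DLK2 and no other of the 5 genes, DLK2+ cells with others held DLK2 and any of the rest, and the remaining states were free of DLK2. The state genes not named in a state were free to vary, and GSTA1-only cells held GSTA1 alone. UMIs were summed per cow and state, and a level is the UMIs of a gene per 10000 UMIs of that sum, with the 3 cows as replicates. Levels are not divided by gene length. They were compared between states, and no test was run between genes.

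SLC14A1 (ENSBTAG00000019870) was found in 6122 cells, which is 29.5% of all cells, with 15099 UMIs and up to 29 UMIs in a cell. Over all cells, cows 1, 2 and 3 had levels of 0.929, 0.491 and 0.655. AQP3 (ENSBTAG00000008493), a channel of water and glycerol in many keratinised epithelia, was found in 11939 cells, or 57.6%, with 35774 UMIs. The AQP3 levels of the cows were 1.59, 0.752 and 2.15 in the same order, so the cows stood farther apart in AQP3 than in SLC14A1. AQP7 (ENSBTAG00000020105) gave 126 UMIs in 124 cells, and AQP11 (ENSBTAG00000019928) gave 11 UMIs in 11 cells. AQP9 (ENSBTAG00000013452) gave 0 UMIs in 20728 cells, which allows a level of up to 0.000126 per 10000 UMIs (3 counts over all cells, for counting error only). The urea transporter and AQP3 thus carried nearly all of the members' signal, and the remaining aquaporins were at the edge of detection or below it.

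With states set at 1 UMI, SLC14A1 was highest in GJA1+ cells that also held GSTA1 or IGFBP5, and lowest in DLK2-only cells. In GJA1+ GSTA1+ IGFBP5- cells cows 1, 2 and 3 had levels of 2.74, 1.78 and 1.94, with a mean of 2.16 ± 0.516 (SD, n = 3). In GJA1+ IGFBP5+ cells they had 2.25, 1.59 and 2.04, with a mean of 1.96 ± 0.336. Most cells of this second state also held GSTA1. Of its 452, 390 and 461 cells in cows 1, 2 and 3, 210, 187 and 267 held GSTA1 without FABP4. A further 167, 164 and 162 held GSTA1 and FABP4, so its level is not that of IGFBP5 without GSTA1. In GJA1+ cells with neither IGFBP5 nor GSTA1 the mean was 0.645. In DLK2-only cells they had 0.0925, 0.0743 and 0.141, with a mean of 0.103 ± 0.0348. Every cow was thus at least 1.59 in both high states and at most 0.141 in the low state, with no overlap.

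Between these ends the states formed steps. FABP4+ IGFBP5+ GJA1- cells had 0.956, 0.782 and 1.01 in cows 1, 2 and 3, and GSTA1-only cells had 0.834, 0.838 and 0.918. FABP4+ IGFBP5- GJA1- cells had 0.720, 0.661 and 0.742. Mean levels were 0.645 ± 0.125 in GJA1+ IGFBP5- GSTA1- cells, 0.567 ± 0.0436 in IGFBP5+ GJA1- FABP4- cells and 0.489 ± 0.142 in DLK2+ cells with others. Cells with none of the 5 genes had 0.337, 0.273 and 0.290. Along this order, neighbouring states did not overlap between GJA1+ IGFBP5+ and FABP4+ IGFBP5+ GJA1-, between GSTA1-only and FABP4+ IGFBP5- GJA1-, between DLK2+ with others and none of the 5, and between none of the 5 and DLK2-only. The other neighbours did not differ beyond the spread of the cows. With every cell thinned to 5000 UMIs, GSTA1-only cells overlapped FABP4+ IGFBP5- GJA1- cells (0.974, 1.10 and 1.10 against 1.26, 0.794 and 1.0 in cows 1, 2 and 3). DLK2+ cells with others then also overlapped cells with none of the 5 (0.576, 0.245 and 0.353 against 0.362, 0.260 and 0.295). The GJA1+ state without IGFBP5 and GSTA1 was the smallest, with 83 cells and 49 SLC14A1 UMIs, and its place in the order depended on the gate. It was below the other GJA1+ states at 1 UMI, and above them with the state genes positive at 2 or more UMIs, with a mean of 2.97 on 6, 8 and 9 SLC14A1 UMIs against 2.36 in GJA1+ GSTA1+ IGFBP5- and 2.19 in GJA1+ IGFBP5+ cells.

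**Figure D1:**
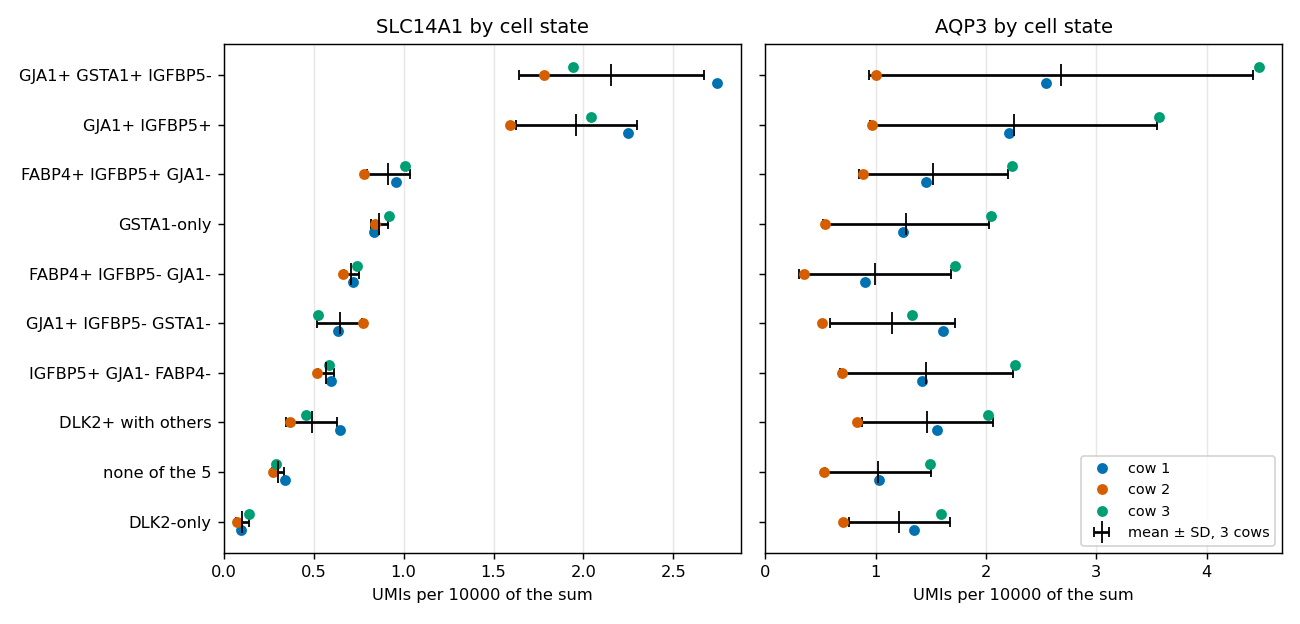
Level of SLC14A1 (left) and AQP3 (right) in UMIs per 10000 UMIs of the sum (x axis) in 10 cell states (y axis, in the order of SLC14A1). Points are the 3 cows and bars the mean ± SD; SLC14A1 falls from 2.16 in GJA1+ GSTA1+ IGFBP5- cells to 0.103 in DLK2-only cells with close points, while the AQP3 points of cow 2 lie below those of cows 1 and 3 in every state.

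AQP3 followed the cows more than the states. In GJA1+ GSTA1+ IGFBP5- cells cows 1, 2 and 3 had levels of 2.55, 1.01 and 4.48. In GJA1+ IGFBP5+ cells they had 2.21, 0.972 and 3.57, and in DLK2-only cells 1.35, 0.706 and 1.59. Cow 2 was lowest in every state, and the ranges of the cows overlapped between all neighbouring states. Within each cow both of these GJA1+ states were nevertheless above DLK2-only cells. The small GJA1+ IGFBP5- GSTA1- state, at 1.61, 0.516 and 1.33, had no settled place. It was above DLK2-only cells in cow 1 and below them in cows 2 and 3, and in thinned cells each of these directions turned (1.26, 1.14 and 2.08 against 1.40, 0.848 and 1.75). The ratios of GJA1+ IGFBP5+ to DLK2-only cells were 1.64, 1.38 and 2.24 for AQP3 in cows 1, 2 and 3, beside 24.3, 21.4 and 14.4 for SLC14A1.

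Changes between states were tested with edgeR's quasi-likelihood test on the 30 sums with the cow as a block, and a gene was called at a Benjamini-Hochberg adjusted p under 0.05 over 10543 genes and a log2 fold change past 0.36. An exact test on 3 paired differences alone cannot go below p = 0.25. Of the contrasts, 3 share the DLK2-only sums, and the sums of both GJA1+ states compared are also shared between contrasts. The values of the contrasts are therefore not independent of each other.

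In GJA1+ IGFBP5+ against DLK2-only cells, SLC14A1 was higher by 4.45 on the log2 scale (SE 0.14, edgeR adjusted p = 1.3e-24) and in 3 of 3 cows. AQP3 was higher by 0.98 (SE 0.12, edgeR adjusted p = 1.7e-08), also in 3 of 3 cows. AQP7 gave 15, 7 and 5 UMIs in cows 1, 2 and 3 in GJA1+ IGFBP5+ cells and 2, 3 and 2 in DLK2-only cells. SLC14A1 and AQP3 were called higher, beside 21.7% of all genes tested that were called higher and 23.9% lower. AQP7 passed the filter on low counts only through 3 sums with 2, 2 and 1 UMIs, all of states where its mean level was among its highest. None of these sums was of either state compared here, and the cow 1 sum of GJA1+ GSTA1+ IGFBP5- cells, compared below, was among them. With entry on so few UMIs, the AQP7 values of this and the following contrasts are descriptions (here 2.07 on the log2 scale, SE 0.60). Without the cow as a block AQP3 was no longer called (1.09, edgeR adjusted p = 0.184), while SLC14A1 was called in every alternative run, at 4.27 to 5.05.

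The compared cells also differed in depth and in other signs of their condition. Median UMIs per cell were 16614 in GJA1+ IGFBP5+ and 8470.5 in DLK2-only cells, and median mitochondrial shares were 16.6% and 9.43%. The summed level of the dissociation stress genes FOS, FOSB, JUN, EGR1, HSPA6 and ATF3 was 17.4, 30.9 and 6.35 UMIs per 10000 in cows 1, 2 and 3 in GJA1+ IGFBP5+ cells and 71.1, 75.4 and 16.2 in DLK2-only cells. With every cell thinned to 5000 UMIs, SLC14A1 differed by 4.27 (edgeR adjusted p = 4.2e-27). With cells outside a mitochondrial share of 1 to 25% left out, it differed by 4.47 (edgeR adjusted p = 4.7e-25). The other states set against DLK2-only cells below stood apart from them as well. Median UMIs were 13564 in GJA1+ GSTA1+ IGFBP5- and 12004 in FABP4+ IGFBP5- GJA1- cells, and median mitochondrial shares 13.1% and 12.1%. Their stress gene levels in cows 1, 2 and 3 were 14.0, 38.2 and 5.12, and 26.7, 49.4 and 6.79. The part of the stress genes in these results was not tested.

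In GJA1+ GSTA1+ IGFBP5- against DLK2-only cells, SLC14A1 was higher by 4.45 (SE 0.15, edgeR adjusted p = 2.6e-23), and the ratios of levels were 29.7, 24.0 and 13.7 in cows 1, 2 and 3. AQP3 was higher by 1.11 (SE 0.14, edgeR adjusted p = 1.8e-08), with ratios of 1.89, 1.42 and 2.81. AQP7 gave 2, 1 and 2 UMIs in the GJA1+ state, and its difference was 2.27 (SE 0.97). The background here was 18% of genes called higher and 19.7% lower. AQP3 was again not called without the block (1.22, edgeR adjusted p = 0.127).

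Within the GJA1+ cells, the GSTA1+ IGFBP5- and IGFBP5+ states did not differ in any member by a called amount. Most cells of the IGFBP5+ state also held GSTA1, so this contrast does not set cells with GSTA1 against cells without it. SLC14A1 differed by -0.01 (SE 0.12, edgeR adjusted p = 0.99), with ratios of 1.22, 1.12 and 0.952 in cows 1, 2 and 3. AQP3 differed by 0.14 (SE 0.13, edgeR adjusted p = 0.72), with ratios of 1.15, 1.03 and 1.25. AQP7 differed by 0.20 (SE 0.77). By edgeR and by DESeq2 0 of 3 members were called, and 0 had an unadjusted p under 0.05. In this contrast 1.23% of genes were called higher and 1.41% lower.

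FABP4+ IGFBP5- GJA1- cells separated SLC14A1 from AQP3. SLC14A1 was higher than in DLK2-only cells by 2.89 (SE 0.18, edgeR adjusted p = 3.9e-15), with ratios of 7.79, 8.89 and 5.24 in cows 1, 2 and 3, where 10.7% of genes were called higher. AQP3 had ratios of 0.673, 0.496 and 1.08, below 1 in 2 cows, and its difference was -0.31 (SE 0.16, edgeR adjusted p = 0.17). Without cow 3 it was called lower (-0.78, edgeR adjusted p = 0.0045), where 424 of 10393 genes were called lower, and 9.07% were with all cows. AQP7 gave 0, 0 and 2 UMIs in the FABP4+ state (0.82, SE 1.27).

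Among IGFBP5+ cells, those with GJA1 were set against those with FABP4 and no GJA1. SLC14A1 was higher with GJA1 by 1.15 (SE 0.11, edgeR adjusted p = 4.3e-09), and its ratios were 2.35, 2.03 and 2.03 in cows 1, 2 and 3. The background was 4.75% of genes called higher and 3.53% lower. AQP3 was higher by 0.56 (SE 0.13, edgeR adjusted p = 0.0033), with ratios of 1.52, 1.10 and 1.60. The AQP3 call was lost with cells thinned to 5000 UMIs (0.27, adjusted p = 0.374), with the state genes positive at 2 or more UMIs (0.40, adjusted p = 0.209), without cow 3 (0.40, adjusted p = 0.054) and without the block (0.63, adjusted p = 1), all by edgeR. AQP7 gave 2, 4 and 4 UMIs in the FABP4+ state (0.39, SE 0.59).

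**Figure D2:**
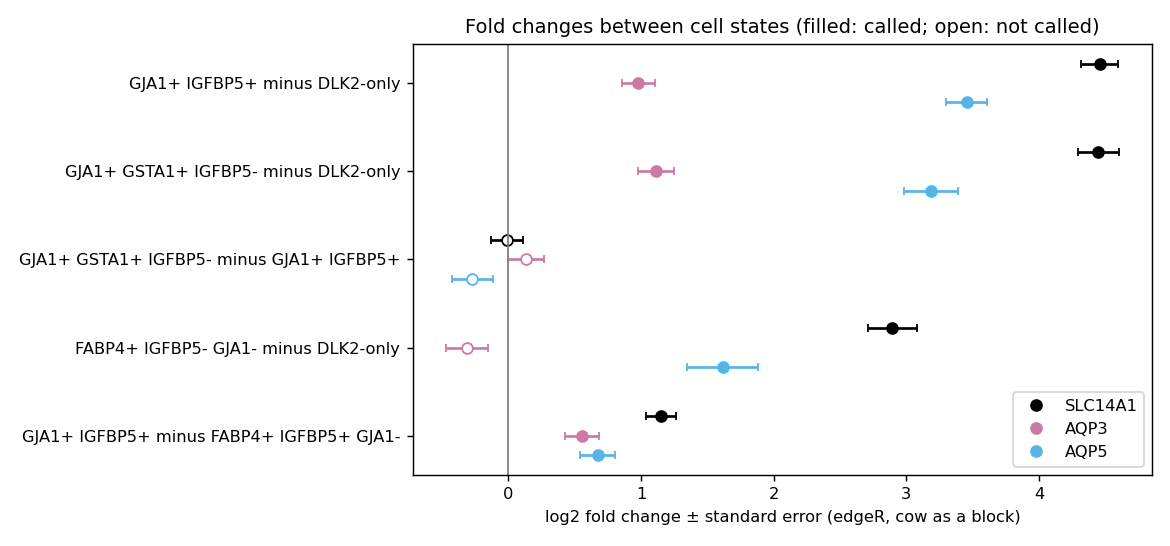
Log2 fold change ± standard error (x axis) of SLC14A1, AQP3 and AQP5 in 5 contrasts between cell states (y axis), from edgeR with the cow as a block; filled points were called and open points were not. SLC14A1 reaches 4.45 in both contrasts of GJA1+ with DLK2-only cells, and none of these genes is called between the GJA1+ states.

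Exact combinations of the 5 state genes resolved the SLC14A1 levels further. Of 32 possible combinations, 10 had at least 50 cells in each cow. The cells were not thinned, and the part of depth in these levels was not tested. Median UMIs per cell were 10179 with IGFBP5 alone and 12750 with IGFBP5 and GSTA1. They were 16178.5 with GJA1 as well and 18172 with GJA1 and FABP4 as well. Cells with IGFBP5 alone had SLC14A1 levels of 0.441, 0.400 and 0.377 in cows 1, 2 and 3, and cells with IGFBP5 and GSTA1 had 0.875, 0.935 and 0.926. Cells that also held GJA1 had 2.39, 1.65 and 1.99. In each cow the level was higher with GSTA1 than without it and higher again with GJA1. Adding FABP4 to these 3 genes gave 2.37, 1.68 and 2.27, which overlapped the values without FABP4. Where GJA1 was absent, cells with FABP4, IGFBP5 and GSTA1 had 1.16, 0.953 and 1.17, above cells with IGFBP5 and GSTA1 only in each cow. DLK2 went the other way: DLK2 with IGFBP5 had 0.272, 0.196 and 0.266, below IGFBP5 alone in every cow.

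AQP3 moved less over the same combinations. It was 1.196, 0.703 and 2.07 with IGFBP5 alone, 1.82, 0.686 and 2.57 with IGFBP5 and GSTA1, and 2.33, 1.07 and 3.57 when GJA1 was present as well. Each cow was higher with GJA1 than with IGFBP5 and GSTA1 only. DLK2 with IGFBP5 gave 1.45, 0.902 and 2.02, which in cows 1 and 2 was above IGFBP5 alone and in cow 3 below it. DLK2 with IGFBP5 and GSTA1 gave 1.44, 0.645 and 2.25, below IGFBP5 and GSTA1 only in each cow. DLK2 alone gave 1.35, 0.706 and 1.59, above cells with none of the 5 genes in each cow (1.03, 0.536 and 1.49).

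Co-detection was measured in cells thinned to 5000 UMIs, with the states gated again after thinning, because deeper cells show more genes of every kind. Thinning left out 586, 228 and 704 shallower cells in cows 1, 2 and 3. The odds of a SLC14A1 UMI in cells with GJA1 over cells without it stood at 6.29, 6.56 and 7.08 in cows 1, 2 and 3. The share of cells with SLC14A1 was 54.5% with GJA1 and 15.5% without, as means of the cows. For GSTA1 the odds ratios were 5.34, 5.96 and 4.83, and for FABP4 4.47, 3.23 and 2.74. IGFBP5 was the weakest of the positive partners, at 2.25, 1.69 and 1.32. With DLK2 the ratios were 0.265, 0.294 and 0.410, so SLC14A1 was the rarer where DLK2 was present in each cow (8.59% of cells with DLK2 and 22.7% without).

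AQP3 was co-detected with GJA1 at odds ratios of 1.95, 1.53 and 3.07 in cows 1, 2 and 3. With IGFBP5 they were 1.63, 1.42 and 1.56, and with GSTA1 1.77, 1.21 and 1.98. FABP4 gave 1.75, 1.01 and 1.15, and in cow 2 the shares of cells with AQP3 were 25.9% with FABP4 and 25.8% without it. With DLK2 they lay on both sides of 1, at 0.921, 1.27 and 0.801. The odds ratios of AQP3 were thus above 1 with GJA1, IGFBP5 and GSTA1 in each cow. With FABP4 they were above 1 in cows 1 and 3 and near 1 in cow 2, and with DLK2 they had no common direction.

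**Figure D3:**
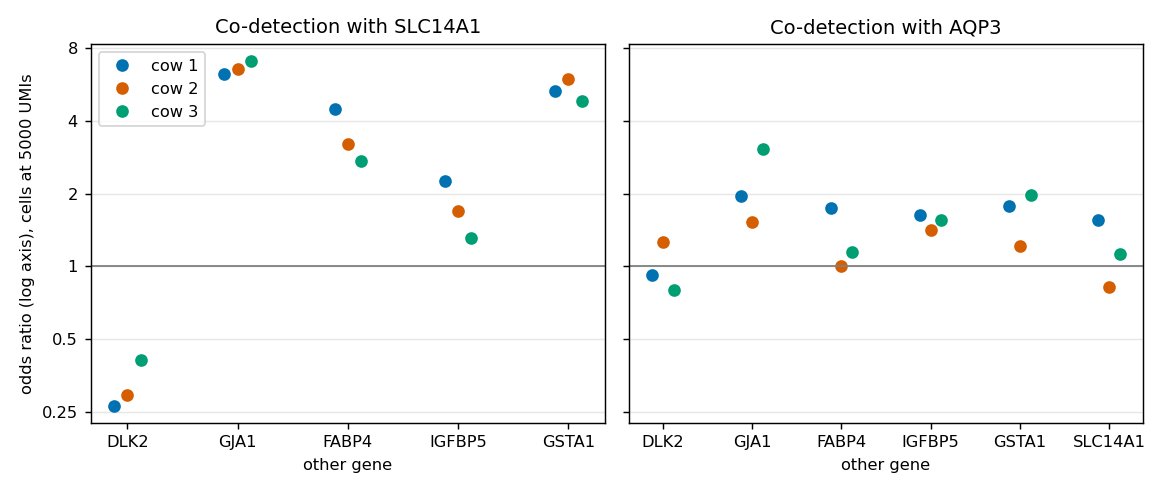
Odds ratio of co-detection (y axis, log scale) of SLC14A1 (left) and AQP3 (right) with the state genes and with each other (x axis), in cells thinned to 5000 UMIs; points are the 3 cows and the line marks a ratio of 1. SLC14A1 lies at 4.83 or above with GJA1 and GSTA1 and at 0.410 or below with DLK2, and AQP3 stays between 0.801 and 3.07.

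SLC14A1 and AQP3 were co-detected at 1.56, 0.820 and 1.12 times the odds in cows 1, 2 and 3. Cells with both were 325, 233 and 1028, and the number that the separate shares of each gene give was 272, 266 and 986. Inside GJA1+ IGFBP5+ cells the ratio of observed to that number was 1.06, 0.876 and 1.05, and inside GJA1+ GSTA1+ IGFBP5- cells it was 0.955, 0.954 and 1.01. Over the 10 states the ratio lay between 0.704 and 1.28 in cow 1, between 0.581 and 1.06 in cow 2 and between 0.793 and 1.05 in cow 3. The lowest was in DLK2-only cells of cow 2, with 10 cells against 17.2, and cow 2 was below 1 in 9 of 10 states. Without thinning the odds ratios were 2.46, 1.14 and 1.43, above 1 in each cow, so the direction of cow 2 turned with thinning. These values are given without a test.

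The SLC14A1 level was higher in thinned cells with more GJA1 UMIs, given here without a test. It was 0.468, 0.319 and 0.492 UMIs per 10000 in cows 1, 2 and 3 at no GJA1 UMI, and 1.54, 1.34 and 1.74 at 1 UMI. It was 2.03, 1.66 and 2.51 at 2 to 3 UMIs and 3.47, 2.09 and 3.28 at 4 or more, so that every step was upward in each cow. Over the same steps of GSTA1 the mean went from 0.342 through 0.929 and 1.51 to 1.92. Over those of DLK2 it went from 0.700 through 0.294 and 0.121 to 0.0127, where the last step held 27, 105 and 17 cells. AQP3 went from 1.43 through 2.02 and 2.45 to 2.51 over the GJA1 steps, and cow 1 fell at the last of them. Over the IGFBP5 steps the AQP3 mean went from 1.30 through 1.55 and 1.85 to 2.46, upward at every step in each cow.

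**Figure D4:**
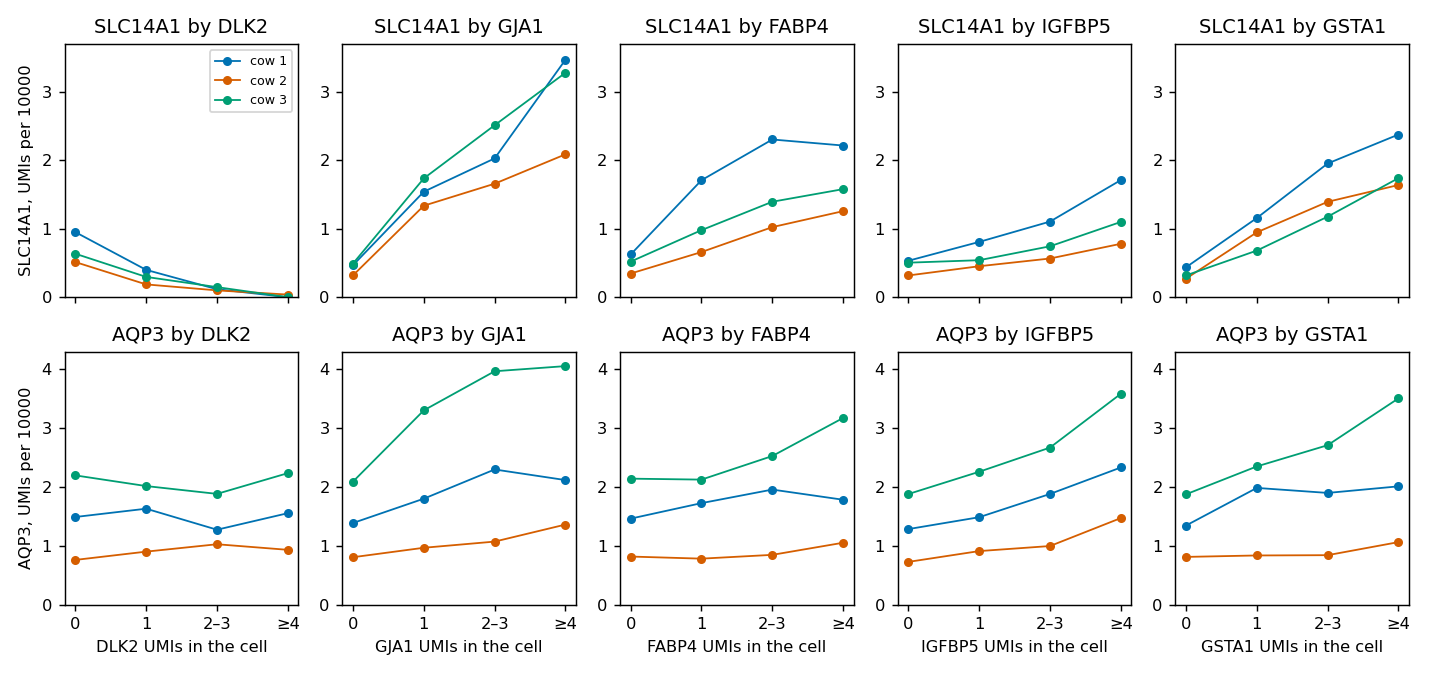
Level of SLC14A1 (top) and AQP3 (bottom) in cells thinned to 5000 UMIs (y axis) against the UMIs of each state gene in the same cell (x axis: 0, 1, 2 to 3, 4 or more), with a line for each cow. SLC14A1 is higher at more GJA1 and GSTA1 UMIs and lower at more DLK2 UMIs in each cow. AQP3 is higher at more IGFBP5 UMIs in each cow and shows no common slope with DLK2.

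Cells rich in SLC14A1 were unevenly spread. Of 792 cells with 5 or more SLC14A1 UMIs, 363 were GJA1+ IGFBP5+ cells, which is 45.8%, while that state held 6.29% of all cells. The numbers were 158, 93 and 112 in cows 1, 2 and 3. DLK2-only cells, 14.4% of all cells, gave 1 such cell. These counts are of cells not thinned, and GJA1+ IGFBP5+ cells were the deepest, with a median of 16614 UMIs against 10514 over all cells. The part of depth in them was not tested. GJA1+ IGFBP5+ cells gave 29.0% of all SLC14A1 UMIs with 9.37% of the UMIs of all genes. For AQP3 the same state gave 13.7%.

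Before thinning, 83.1% of GJA1+ IGFBP5+ cells held a SLC14A1 UMI (SD 0.189, n = 3) and 6.74% of DLK2-only cells did (SD 1.60). After thinning the shares were 59.5% (SD 8.76) and 5.00% (SD 1.49). For AQP3 the thinned shares were 61.8%, 37.2% and 79.5% in cows 1, 2 and 3 in GJA1+ IGFBP5+ cells and 38.4%, 26.5% and 42.8% in DLK2-only cells. The cells were deposited as epithelial and no state is known to lack either gene, so the part of free RNA in the low shares was not tested.

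The genes whose levels ran most like SLC14A1 over the 30 sums, with each cow's mean taken out, were the unnamed gene ENSBTAG00000040393 (Pearson r = 0.973), TST (0.972), MGST1 (0.967), the unnamed gene ENSBTAG00000036116 (0.967) and COX7A2 (0.965). TST encodes a mitochondrial sulfurtransferase, MGST1 a membrane-bound glutathione transferase and COX7A2 a subunit of cytochrome c oxidase. Most like AQP3 were TMBIM6 (0.886), SCAMP2 (0.869), PERP (0.868), CTSD (0.864) and METRNL (0.861). PERP encodes a protein of desmosomes and CTSD the lysosomal protease cathepsin D. SLC14A1 and AQP3 had r = 0.587. The sums share cows, libraries and depth, so these values are descriptions.

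Other water channels were looked up by name. Of 9 listed urea and water channels, 6 had a row, and AQP5, a water channel of glands and epithelia, was tested. Its level was 1.12, 0.718 and 0.638 in cows 1, 2 and 3 in GJA1+ IGFBP5+ cells and 0.135, 0.0584 and 0.0828 in DLK2-only cells, with no overlap. AQP5 was higher in the GJA1+ state by 3.45 (SE 0.15, edgeR adjusted p = 1.1e-20). It was also higher than in DLK2-only cells by 3.18 in GJA1+ GSTA1+ IGFBP5- cells (edgeR adjusted p = 1.1e-15) and by 1.62 in FABP4+ IGFBP5- GJA1- cells (edgeR adjusted p = 1.6e-05). These 3 calls of AQP5 held in every alternative run. In GJA1+ IGFBP5+ against FABP4+ IGFBP5+ GJA1- cells AQP5 was higher by 0.67 (edgeR adjusted p = 0.00049), and it was not called without the block (0.64) or without cells that held a UMI of BPIFA2C (0.46). AQP1, AQP2, AQP4, AQP8 and MIP gave 1 to 34 UMIs in all cells.

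Genes of urea and ammonia handling were called higher in part. The counts against DLK2-only cells give the higher direction only, and with 6 genes nothing is read from them. In GJA1+ IGFBP5+ against DLK2-only cells, 3 of the 6 tested other than ARG1 were called higher, beside 21.7% of all genes. ASL and ASS1, enzymes of arginine synthesis, were higher by 1.05 and 0.94, and RHBG, an ammonia transporter, by 0.40, with edgeR adjusted p-values of at most 0.015. ARG1, the arginase that releases urea, gave 0, 0 and 21 UMIs in cows 1, 2 and 3 in the GJA1+ state and 0 in DLK2-only cells of each cow. ARG1 had 83 UMIs in 16 cells over all states, 73 of them in cow 3. Like AQP7 it passed the filter on low counts only through sums of GJA1+ or GSTA1-only cells, where it was high, so its values are descriptions and it is left out of the counts. ASS1 was called in every alternative run. ASL was not called without the block (1.02) or with thinned cells (0.69), and RHBG was called in 6 of 12 alternatives. RHBG was not called without cow 1 (0.35), without cow 2 (0.37), without the block (0.39), with gates at 2 UMIs (0.27), with thinned cells (0.30) or with the mitochondrial limit (0.35).

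In GJA1+ GSTA1+ IGFBP5- against DLK2-only cells, 1 of the 6 was called higher, beside 18% of all genes. ASL was higher by 1.25, and it was not called with thinned cells (0.68) or without the block (1.28). ARG1 gave 3, 0 and 45 UMIs in cows 1, 2 and 3 against 0 in DLK2-only cells of each cow. In FABP4+ IGFBP5- GJA1- against DLK2-only cells, ASS1 was higher by 0.60, where 10.7% of all genes were called higher. ASS1 was called there in 6 of 12 alternatives, and not without cow 1 (0.48), cow 2 (0.66) or cow 3 (0.46). Between the GJA1+ states, where no member was called, ASS1 was lower without IGFBP5 at -1.03 (edgeR adjusted p = 0.0031; without cow 3 -0.98, adjusted p = 0.055). ASS1 was called in 9 of 12 alternatives there. In GJA1+ IGFBP5+ against FABP4+ IGFBP5+ GJA1- cells edgeR and DESeq2 called 0 of the 7 tested, ARG1 included, of which 2 had an unadjusted p under 0.05.

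Of 5 tested genes of glycerol handling other than MGLL, 2 were called higher in GJA1+ IGFBP5+ against DLK2-only cells, beside 21.7% of all genes. With 5 genes, nothing is read from this count. GPD1L, related to glycerol 3-phosphate dehydrogenases, was higher by 1.36 and PNPLA2, a triglyceride lipase, by 0.54. MGLL, the lipase that frees glycerol from monoglycerides, gave 0, 2 and 0 UMIs in cows 1, 2 and 3 in the GJA1+ state and 16, 48 and 6 in DLK2-only cells. Few sums of MGLL passed the filter on low counts. Those of DLK2-only cells in cows 1 and 2, where MGLL was high, were among them. None of them was of either GJA1+ state compared here, so its values are descriptions too. GPD1L was called in every alternative that tested it, and PNPLA2 was called in 8 of 12. PNPLA2 was not called without cow 2 (0.27), without the block (0.53), with thinned cells (0.35) or without BPIFA2C cells (0.35). In GJA1+ GSTA1+ IGFBP5- against DLK2-only cells, PNPLA2 was higher by 0.53 and MGLL had 0 UMIs against 70. PNPLA2 was called there in 5 of 12 alternatives, and not without cow 1 (0.59), cow 2 (0.35) or cow 3 (0.60). PNPLA2 was also higher by 0.62 in GJA1+ IGFBP5+ against FABP4+ IGFBP5+ GJA1- cells, called in 5 of 12 alternatives and not without cow 2 (0.44) or cow 3 (0.61). In FABP4+ IGFBP5- GJA1- against DLK2-only cells and between the GJA1+ states edgeR and DESeq2 called 0 of the 6 tested, MGLL included, with 1 and 0 at an unadjusted p under 0.05.

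Among 5 tested genes of the osmotic and volume response, WNK1, a kinase of volume regulation, was called higher in each of the 3 contrasts with DLK2-only cells, by 0.74, 0.68 and 0.61 in GJA1+ IGFBP5+, GJA1+ GSTA1+ IGFBP5- and FABP4+ IGFBP5- GJA1- cells, beside 21.7%, 18% and 10.7% of all genes called higher. NFAT5, the transcription factor of the tonicity response, was lower there at -0.63, -0.50 and -0.87, and the kinase SGK1 at -0.58, -0.60 and -0.66, beside 23.9%, 19.7% and 9.07% of all genes called lower. The medians of the 5 were -0.35, -0.21 and -0.21, beside -0.05, -0.08 and -0.05 over all genes. With 5 genes, nothing is read from these counts. In the first of these contrasts WNK1 was called in 12 of 12 alternatives, SGK1 in 11 (not without the block) and NFAT5 in 10 (not without the block or with thinned cells). In the second, WNK1 was called in 11, SGK1 in 8 and NFAT5 in 4 of 12. SGK1 was not called there without cow 1 (-0.30), and the 8 in which NFAT5 was not called included DESeq2, without cow 2 (-0.61) or without cow 3 (-0.22). In the third, WNK1 was called in 8, SGK1 in 9 and NFAT5 in 9 of 12. Without cow 3, WNK1 was at 0.25, NFAT5 at -0.63 and SGK1 at -0.57 there, and none of these passed. Between the GJA1+ states and in GJA1+ IGFBP5+ against FABP4+ IGFBP5+ GJA1- cells edgeR and DESeq2 called 0 of the 5, with 0 and 1 at an unadjusted p under 0.05 (medians 0.13 and 0.17, beside -0.05 and 0.0038 over all genes).

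In the RefSeq gene table of ARS-UCD2.0, a later assembly than that of the files, SLC14A1 follows SLC14A2, the gene of the related transporter UT-A, among protein-coding genes. AQP7 and AQP3 are also neighbours there. SLC14A2 had no named row and was not analysed here.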

How the data were processed

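Single cells of 3 cows, with 1 library each, were measured. The authors aligned reads and counted UMIs with Cell Ranger 3.1.0, removed cells by numbers of genes and UMIs and by mitochondrial share, identified doublets with DoubletFinder, and removed other cell types by markers, per their methods. Whether the doublets were removed is not given in the sources used here, and no doublet caller was run. The deposited matrix holds UMI counts per gene and cell. The deposited table that names genes holds natural log values scaled by the authors to 10000 UMIs per cell; it was used only for names, after it was checked to match the counts in 401 rows within 1e-06. The barcode suffix gave the cow.

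Counts were summed per cow and state (at least 5 cells in a sum), giving 30 sums, and tested in R 4.3.3 with edgeR 4.0.16 (TMM, filterByExpr, glmQLFit, glmQLFTest, cow as a block, Benjamini-Hochberg over 10543 genes). The states compared are cells of the same animals: deviations of same-cow sums from each state's mean correlated at 0.140 to 0.898 over 135 pairs. Those of different cows lay at -0.537 to -0.0557 over 270 pairs. Taking out each state's mean by itself pushes values between cows below 0, so nothing is read from that sign. Library totals were 38912809 to 104189434 UMIs, but the number of cows limits the precision, and floors cover counting error only. The cows are separate animals.

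Alternatives were DESeq2 1.42.0, RLE scaling, no filter on low counts, no block, gates at 2 UMIs, thinning, a mitochondrial limit and leaving out each cow. Leaving out cells with a BPIFA2C UMI and edgeR's robust estimation were chosen after seeing the data. The members and lists were chosen with earlier results of these data known. The named genes were the members, the state genes, list genes called in a contrast, and the 5 genes most alike each member with at least 2000 UMIs. The values of 1 listed gene are not reported here. The scripts were tested on simulated data. Coordinates and sequences were not used here, because no genome of the files' build was at hand.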

Additional observations from a re-analysis of the deposited data

How the results depend on the processing

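SLC14A1 kept its direction and its call in every alternative run for the 4 contrasts where it was called, and its level in GJA1+ IGFBP5+ cells lay between 1.82 and 2.21. Without the cow as a replicate block, which the main test has, the members called fell from 2 to 1 in GJA1+ GSTA1+ IGFBP5- against DLK2-only and from 2 to 1 in GJA1+ IGFBP5+ against FABP4+ IGFBP5+ GJA1-. In the latter contrast 1 was also called with gates at 2 UMIs and with thinned cells, and 1 to 2 when each cow was left out. In FABP4+ IGFBP5- GJA1- against DLK2-only, leaving out each cow gave 1 to 2. The odds ratio of SLC14A1 with GJA1 was 6.64, against 9.96 in cells not thinned and 8.99 with gates at 2 UMIs.

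Differences near 0 changed sign. SLC14A1 between the GJA1+ states was -0.0086, and 0.047 with DESeq2, 0.040 with RLE, 0.014 without the filter, 0.0060 without the block, 0.00011 with thinned cells and -0.040 to 0.053 when each cow was left out. AQP3 there was -0.029 to 0.21 when each cow was left out, and AQP7 was -0.18 with gates at 2 UMIs. Fitted AQP7 values in FABP4+ IGFBP5- GJA1- against DLK2-only ran from -3.65 to 1.25 when each cow was left out. The lowest, without cow 3, is a fit to a state with 0 AQP7 UMIs and is neither a measured fold nor a bound. AQP7 did not pass the filter on low counts with thinned cells, with the mitochondrial limit, without BPIFA2C cells or without cow 1.

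The genes called, 4808, 3973, 279, 2079 and 873 in the 5 contrasts in the order of the report, were 1855, 1962, 5, 257 and 6 without the block. In the first contrast 2894 were called with thinned cells. Between the GJA1+ states 102 were called with thinned cells, 136 with the mitochondrial limit, 45 without BPIFA2C cells and 122 to 172 when each cow was left out. In FABP4+ IGFBP5- GJA1- against DLK2-only 1356 were called without cow 2 and 1051 without cow 3. In the last contrast 445 were called with gates at 2 UMIs, 129 with thinned cells, 379 without BPIFA2C cells, 449 without cow 2 and 427 without cow 3. The SLC14A1 level in GJA1+ IGFBP5- GSTA1- cells, a state of 83 cells, was 2.97 with gates at 2 UMIs against 0.645, which put it above the other GJA1+ states in place of below. The AQP3 level there was 3.09 against 1.15. In cells not thinned the odds ratios of SLC14A1 with IGFBP5 and GSTA1 were 3.33 and 8.35, against 1.75 and 5.38, and with DLK2 the ratio was 0.171 with gates at 2 UMIs against 0.323. The causes were not tested. The 3 cows, and for AQP7, AQP9 and AQP11 the depth, set the limits.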
